A study of Mus musculus with 8 samples.

Results

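Immediate early genes are the first genes that a cell switches on after a stimulus, from factors already present in the cell and without new protein synthesis. Growth factors, calcium entry, stretch, wounding and stress reach their promoters through MAP kinases and through the factors SRF and CREB, and the mRNAs are short-lived, so that they fall back when the stimulus ends. Taking an organ out of an animal is itself such a stimulus in many tissues. Gene coordinates below are those of GENCODE M21 (GRCm38). The 10 genes described here are Fos, Fosb, Jun, Junb, Atf3, Egr1, Nr4a1, Ier2, Dusp1 and Btg2. They were taken by symbol from a list of names, with no measured value in the rule. The list was chosen with earlier results of the same data known. All 10 were found among the 48709 mouse genes counted, and 9 of the 10 passed a filter on low read counts that left 16989 genes for testing.

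The libraries were made from whole utricles, gravity-sensing organs of the inner ear, of C57BL/6 mouse embryos. There were 4 mutant libraries, from embryos that carried the deltaExon4 allele of Rest, which lacks exon 4, on 1 chromosome and a normal allele on the other, Rest(+/deltaExon4), at E15.5, and 4 wild-type libraries of the same age. The sample titles call the mutants KO. The labels of wild-type replicate 4 alone read E15.6 and C57BL/7. Each library pooled the RNA of 7 to 9 mice, nothing says whether pools shared litters, and p-values measure only the spread between pools. Rest encodes a repressor of neuronal genes, and inclusion of its exon 4 gives a shortened protein, so the comparison asks what an allele that cannot include that exon does to expression.

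Depth was 22.4 to 24.6 M (mega) read pairs on genes across the mutants and 20.4 to 23.8 M across the wild types. Pairs that overlapped no annotated exon made up 11.9% to 18.3% of all in the mutant libraries and 18.4% to 22.2% in the wild-type libraries. Genes with at least 1 read numbered 23393 to 23983 across mutants and 24256 to 24675 in wild-type libraries. Neither measure overlapped between genotypes, so they and the genotype cannot be told apart in any result below. All 10 of the hair cell markers looked up were above the filter, among them Myo6 at a mean of 319 CPM (counts per M read pairs on genes, TMM-scaled) across mutants and 349 CPM in wild-type libraries. Otof was at 84.2 CPM across mutants and 167 CPM in wild-type libraries. In such bulk RNA, fewer cells of a type and less RNA per cell cannot be told apart. Rest itself, for which gene counts do not show exon use, averaged 127 ± 3.20 CPM across mutants and 116 ± 7.35 CPM across wild types (SD over 4 libraries each, edgeR adjusted p = 0.455). Every mutant library was above every wild-type library for Rest, as for 2.98% of all genes tested.

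The immediate early genes spanned a wide range of levels, with Btg2, Ier2, Jun and Nr4a1 above the middle of all genes tested and Dusp1, Junb, Fos, Egr1 and Atf3 below it. Ordered by CPM per kilobase of exon, Btg2 led at 109 ± 16.8 across mutants and 138 ± 13.7 across wild types (SD over 4 libraries each). Ier2 followed at 32.4 ± 3.49 and 24.7 ± 2.29 CPM per kilobase in mutant and wild-type libraries, then Jun at 12.0 ± 1.93 and 8.09 ± 1.35, and Nr4a1 at 8.45 ± 1.21 and 5.70 ± 0.745. Btg2 lay above 97.6% of all genes tested on this scale, Ier2 above 88.7%, Jun above 72.8% and Nr4a1 above 65.5%. The other members were lower.

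Dusp1 averaged 1.65 ± 0.417 CPM per kilobase across mutants and 1.18 ± 0.369 in wild-type libraries, and Junb 1.66 ± 0.490 and 0.653 ± 0.324. Fos was at 1.26 ± 0.288 CPM per kilobase across mutants and 0.567 ± 0.407 in wild-type libraries, Egr1 at 1.05 ± 0.240 and 0.572 ± 0.196, and Atf3 at 0.761 ± 0.302 and 0.486 ± 0.191. These genes lay between the 17.6th percentile of the genes tested (Atf3) and the 31.5th (Dusp1). Fosb was lowest, at 0.0451 ± 0.0147 across mutants and 0.0260 ± 0.0147 CPM per kilobase in wild-type libraries. Over the 8 libraries the ranges of Btg2 and Ier2, of Ier2 and Jun, of Nr4a1 and Dusp1, and of Atf3 and Fosb did not overlap. The ranges of Jun and Nr4a1 overlapped, although Jun was above Nr4a1 in 8 of 8 libraries. From Dusp1 through Junb, Fos and Egr1 to Atf3, each neighbour in the order overlapped the next, and 5 to 6 of the 8 libraries held the order of the means. All libraries came from dissected tissue and no undissected tissue was analysed here, so the part of dissection in these levels was not tested.

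**Figure D1:**
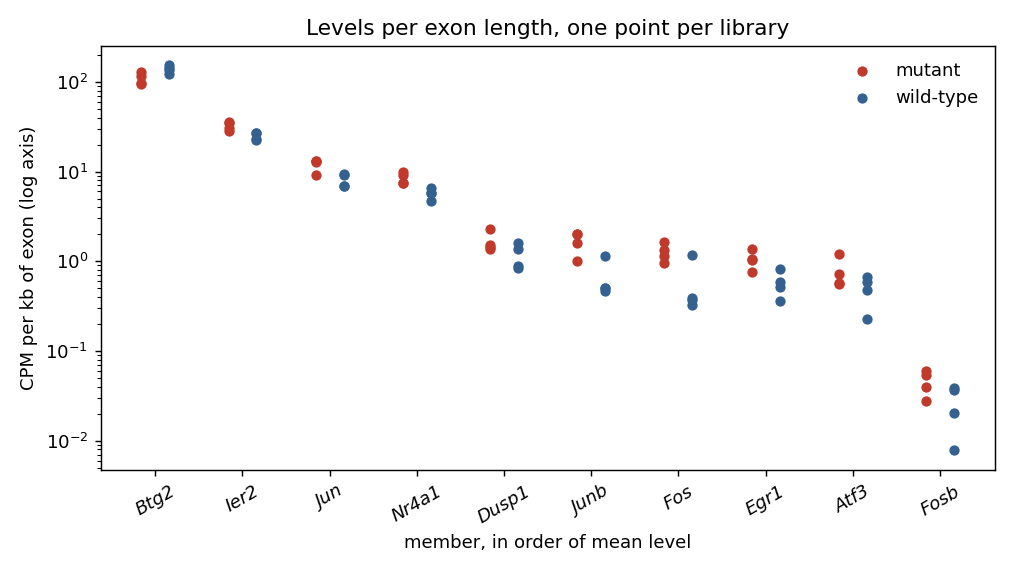
Levels of the 10 immediate early genes in CPM per kilobase of annotated exon (log axis), 1 point per library, mutant left of wild-type, in the order of the mean over 8 libraries. Btg2 sits between 93.5 and 153 CPM per kilobase, while Fos, Egr1, Atf3, Junb and Dusp1 all lie between 0.225 and 2.27 and Fosb at 0.0602 or below.

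None of the 9 genes tested passed an adjusted p of 0.05 over all genes in the comparison of mutant with wild-type libraries (quasi-likelihood test of edgeR, Benjamini-Hochberg adjusted). In the same test 0.147% of all genes tested were called higher in the mutant libraries and 1.02% lower. At an unadjusted p under 0.05, 6 of the 9 were higher (Fos, Jun, Junb, Egr1, Nr4a1 and Ier2) and 1 was lower (Btg2), against 5.46% and 7.92% of all genes tested. DESeq2, run as an alternative, called 4 of them higher (Jun, Junb, Nr4a1 and Ier2) and none lower, beside 0.904% of all genes called higher, 2.43% lower and 3.33% in either direction. The log2 change was positive for 8 genes and negative for Btg2, with a median of 0.57 beside a median of -0.0027 over all genes tested. These genes were chosen with earlier results of the same data known, so the counts describe these libraries.

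**Figure D2:**
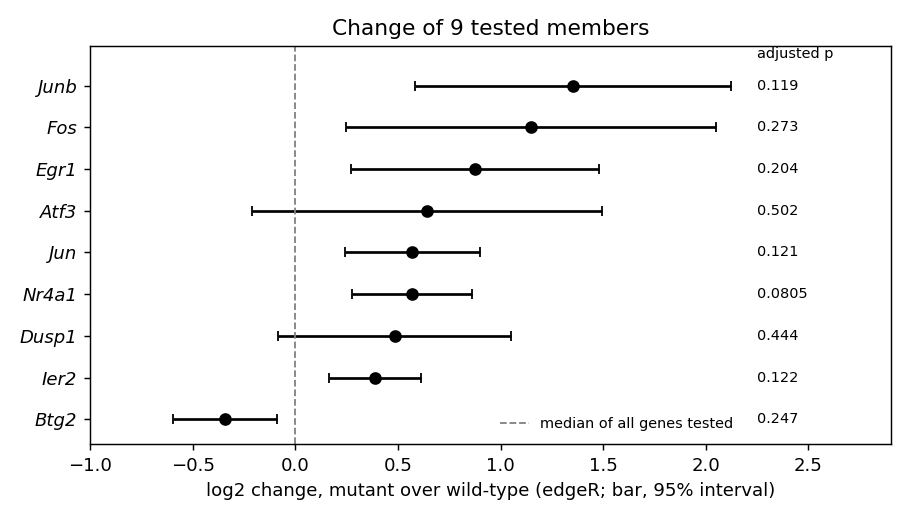
Log2 change, mutant over wild-type, with its 95% interval (edgeR) for the 9 immediate early genes tested, with the adjusted p at the right and the median of all genes as a dashed line. Intervals of 6 genes lie above 0 and that of Btg2 below it, and the adjusted p ranges from 0.0805 to 0.502.

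The promoters of Fos, Jun, Junb, Nr4a1 and Btg2, picked with their values known to show AP-1 genes, a nuclear receptor gene and the gene of opposite sign, are shown because CREB, which acts on immediate early genes, binds the letters TGACG and their palindrome TGACGTCA. Each sequence is the 250 bases before the RefSeq start (GRCm38.p6), which for Nr4a1 lies inside the GENCODE gene, written 5′ to 3′ on the gene's strand. Capitals mark TGACG, or CGTCA for a match on the other strand, and the full TGACGTCA holds both.
Fos, chr12:85473640-85473889, plus strand: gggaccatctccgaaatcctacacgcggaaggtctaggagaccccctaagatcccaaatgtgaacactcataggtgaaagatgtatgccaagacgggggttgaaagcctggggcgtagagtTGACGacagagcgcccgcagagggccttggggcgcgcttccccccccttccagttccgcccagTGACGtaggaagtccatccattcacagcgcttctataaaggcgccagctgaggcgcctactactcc
Jun, chr4:95052223-95052472, minus strand: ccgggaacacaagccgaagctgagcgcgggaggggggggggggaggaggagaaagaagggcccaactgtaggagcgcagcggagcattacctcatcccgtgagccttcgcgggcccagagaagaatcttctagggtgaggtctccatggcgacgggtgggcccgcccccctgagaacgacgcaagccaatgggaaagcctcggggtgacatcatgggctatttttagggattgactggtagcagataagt
Junb, chr8:84978749-84978998, minus strand: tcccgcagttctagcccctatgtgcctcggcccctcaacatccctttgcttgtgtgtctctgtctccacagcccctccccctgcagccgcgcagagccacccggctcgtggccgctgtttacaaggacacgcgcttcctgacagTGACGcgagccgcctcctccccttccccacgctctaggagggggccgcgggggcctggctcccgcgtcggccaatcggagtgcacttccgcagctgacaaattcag
Nr4a1, chr15:101266596-101266845, plus strand: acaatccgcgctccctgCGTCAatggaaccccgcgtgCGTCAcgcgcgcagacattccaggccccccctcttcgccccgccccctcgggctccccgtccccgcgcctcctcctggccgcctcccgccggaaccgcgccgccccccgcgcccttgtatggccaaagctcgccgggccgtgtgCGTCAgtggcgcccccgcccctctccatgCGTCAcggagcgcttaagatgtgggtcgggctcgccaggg
Btg2, chr1:134079156-134079405, minus strand: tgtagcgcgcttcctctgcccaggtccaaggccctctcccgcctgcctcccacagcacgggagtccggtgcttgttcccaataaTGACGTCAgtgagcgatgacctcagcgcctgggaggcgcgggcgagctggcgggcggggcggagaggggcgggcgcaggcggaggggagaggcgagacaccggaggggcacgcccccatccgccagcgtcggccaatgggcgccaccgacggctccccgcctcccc

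RefSeq sequences were matched for 8 of the 10 genes, all but Egr1 and Ier2. TGACG on either strand was present in 7 of these 8 (not in Jun), against 17.8% of all 32851 promoters of this length. Nr4a1 held 4 such matches, beginning at -233, -213, -69 and -40 relative to the start, and Fos held 2, beginning at -129 and -66. TGACGTCA was found in Dusp1 and Btg2, against 1.55% of all promoters. The letters GCGNGGGCG, which EGR proteins bind, were found in Fosb, Nr4a1 and Btg2, against 4.70% of all promoters. No match was found in these windows for TGANTCA, the AP-1 letters, or for the CArG box that SRF binds, which 6.75% and 1.47% of all promoters held. Only exact matches were counted, so near matches, such as tgacatca in Jun and ccttgtatgg in Nr4a1, are not included. Bases more than 250 before the start were not searched. Nr4a1 and Btg2, whose log2 changes had opposite signs, both held CREB and EGR letters, and a match is a description of the sequence.

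Fos and Fosb encode proteins that pair with Jun proteins to form the transcription factor AP-1. Fos (chr12:85473890-85477273) was at 2.23, 3.82, 3.13 and 2.70 CPM in mutant replicates 1 to 4, against 2.76, 0.878, 0.768 and 0.921 CPM in wild-type replicates 1 to 4. Of the wild-type libraries, replicate 1 alone reached the mutant range, on 65 read pairs against 19 in each of the other wild-type libraries. The mean was 2.97 ± 0.677 CPM across mutants and 1.33 ± 0.956 CPM across wild types (SD over 4 libraries each), a log2 change of 1.15 ± 0.41 (SE, edgeR adjusted p = 0.273). Without wild-type replicate 1 the log2 change of Fos was 1.80 and the adjusted p was 0.0247, and over all 15 alternatives the adjusted p ranged from 0.0247 to 0.436. Fosb (chr7:19302696-19310051) had 4, 7, 9 and 6 read pairs in the mutant libraries and 3, 5, 6 and 1 in the wild-type libraries, below the filter on low counts. Its libraries overlapped between genotypes, and without the filter its log2 change was 0.78 (edgeR adjusted p = 0.624).

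Jun (chr4:95049034-95052222), the main partner of Fos in AP-1, was at 41.2, 41.6, 41.4 and 29.1 CPM in mutant replicates 1 to 4, against 22.2, 21.9, 29.4 and 29.6 CPM in wild-type replicates 1 to 4. The first 3 mutant libraries lay close together above every wild-type library, and mutant replicate 4 lay within the wild-type range. The mean was 38.4 ± 6.15 CPM across mutants and 25.8 ± 4.30 CPM across wild types (SD over 4 libraries each), a log2 change of 0.57 ± 0.15 (SE, edgeR adjusted p = 0.121). Over the alternatives the adjusted p of Jun ranged from 0.0110 with DESeq2 to 0.281. An antisense transcript, Junos, overlaps 7.28% of the exon bases of Jun and was at 0.960 to 2.13 CPM across mutants and 1.29 to 1.65 CPM in wild-type libraries, and the reads carry no strand.

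Junb (chr8:84974484-84978718), a Jun family member that can also damp AP-1 activity, had the largest log2 change of the 9 genes. It was at 4.67, 3.68, 4.68 and 2.29 CPM in mutant replicates 1 to 4, against 1.06, 1.15, 1.17 and 2.62 CPM in wild-type replicates 1 to 4. Here wild-type replicate 4 and mutant replicate 4 crossed, and the other libraries of the 2 genotypes stood apart. The mean was 3.83 ± 1.13 CPM across mutants and 1.502 ± 0.746 CPM across wild types (SD over 4 libraries each), a log2 change of 1.35 ± 0.35 (SE, edgeR adjusted p = 0.119). Without wild-type replicate 4 the log2 change of Junb was 1.76 (edgeR adjusted p = 0.0335), and over the alternatives the adjusted p ranged from 0.00952 to 0.293. Of the exon bases of Junb 173, or 7.52%, are shared with Prdx2 on the opposite strand. Prdx2, a peroxidase gene abundant in red blood cells, was at 759 CPM in wild-type replicate 4, against 575 to 638 CPM in wild-type replicates 1 to 3 and 636 to 709 CPM in the mutant libraries. The globin gene Hbb-bs was at 2142 CPM in the same library and at 152.9 to 248.7 CPM in the other 7, and the part of either in the value of Junb was not tested.

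Atf3 (chr1:191170296-191218039) encodes a stress-induced bZIP factor of the ATF family that also pairs with Jun proteins. It was at 1.54, 1.24, 2.59 and 1.19 CPM in mutant replicates 1 to 4, against 1.02, 1.43, 1.25 and 0.485 CPM in wild-type replicates 1 to 4. The genotypes overlapped, with mutant replicate 3 above and wild-type replicate 4 below all others. The log2 change was 0.64 with a 95% interval of -0.21 to 1.495 (edgeR adjusted p = 0.502).

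**Figure D3:**
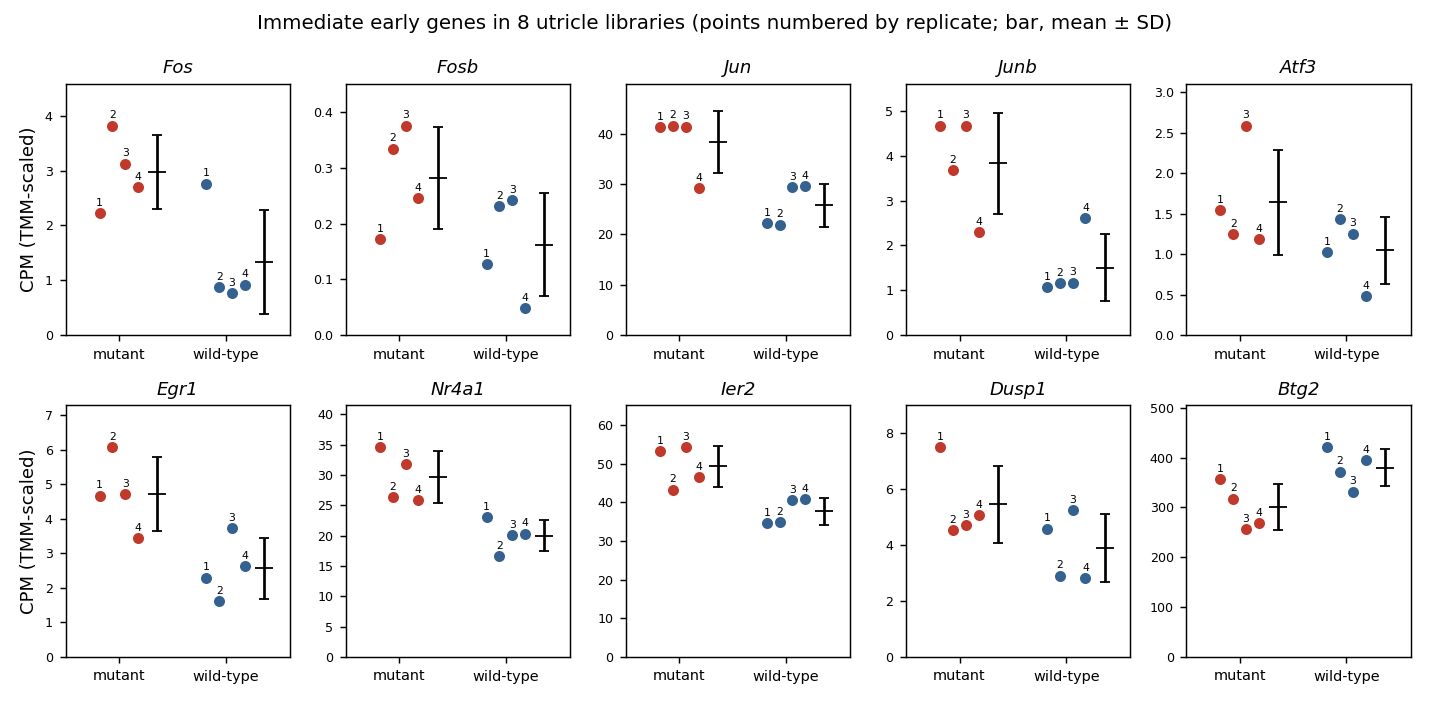
CPM of each of the 10 immediate early genes in the 4 mutant (left) and 4 wild-type (right) libraries, numbered by replicate, with mean ± SD beside the points, on linear axes that start at 0. Nr4a1 and Ier2 separate the genotypes in every library, while 1 library crosses for Fos (wild-type replicate 1 at 2.76 CPM) and for Junb (wild-type replicate 4 at 2.62 CPM).

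Among the factors outside the AP-1 family, Egr1, a zinc finger factor that follows MAP kinase activity, was at 4.67, 6.07, 4.72 and 3.44 CPM in mutant replicates 1 to 4, against 2.30, 1.62, 3.72 and 2.62 CPM in wild-type replicates 1 to 4. Of the wild-type libraries, replicate 3 alone exceeded the lowest mutant library. The mean of Egr1 was 4.72 ± 1.08 CPM across mutants and 2.56 ± 0.877 CPM across wild types (SD over 4 libraries each), a log2 change of 0.88 ± 0.27 (SE, edgeR adjusted p = 0.204, and from 0.0597 to 0.407 over the alternatives).

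Nr4a1 (chr15:101254269-101274795), an orphan nuclear receptor, was at 34.6, 26.4, 31.8 and 25.9 CPM in mutant replicates 1 to 4, against 23.0, 16.6, 20.1 and 20.3 CPM in wild-type replicates 1 to 4. Every mutant library lay above every wild-type library. The log2 change was 0.57 ± 0.13 (SE), with means of 29.7 ± 4.23 CPM across mutants and 20.001 ± 2.61 CPM across wild types (SD over 4 libraries each) and the smallest adjusted p of the 9 genes, 0.0805 by edgeR. The adjusted p of Nr4a1 was 0.0434 without the filter on low counts and 0.00330 with DESeq2, and reached 0.195 when mutant replicate 3 was left out. Ier2 (chr8:84661331-84662852), which encodes a small nuclear protein, was at 53.2, 43.3, 54.2 and 46.4 CPM in mutant replicates 1 to 4, against 34.5, 34.8, 40.6 and 40.8 CPM in wild-type replicates 1 to 4, again without overlap. Its log2 change was 0.39 ± 0.10 (SE, edgeR adjusted p = 0.122, and from 0.0188 to 0.280 over the alternatives). Thus 2 of the 10 genes had non-overlapping libraries, both higher in the mutant, against 2.98% of all genes tested that did not overlap in that direction, 4.89% in the other and 7.88% in either.

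Dusp1 and Btg2 act as brakes. Dusp1 (chr17:26505590-26562128), a phosphatase that switches MAP kinases off, was at 7.50, 4.54, 4.72 and 5.07 CPM in mutant replicates 1 to 4, against 4.59, 2.91, 5.26 and 2.81 CPM in wild-type replicates 1 to 4. Wild-type replicates 1 and 3 reached the mutant range. The log2 change of Dusp1 was 0.48 with a 95% interval of -0.08 to 1.05 (edgeR adjusted p = 0.444), and its annotated exons share 11 bases with Ergic1 on the opposite strand. Ergic1 was at 335 to 391 CPM across mutants and 249.8 to 321 CPM across wild types, without overlap (edgeR adjusted p = 0.235), and its part in the value of Dusp1 was not tested.

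Btg2 (chr1:134075170-134079120), an antiproliferative gene that p53 and differentiation cues also switch on, had a log2 change of the opposite sign. It was at 357, 318, 256 and 269 CPM in mutant replicates 1 to 4, against 421, 372, 332 and 395 CPM in wild-type replicates 1 to 4. Mutant replicate 1 lay above wild-type replicate 3, and the other mutant libraries lay below every wild-type library. The means were 300 ± 46.1 CPM across mutants and 380 ± 37.7 CPM across wild types (SD over 4 libraries each), a log2 change of -0.34 ± 0.11 (SE, edgeR adjusted p = 0.247, and from 0.110 to 0.486 over the alternatives). Btg2 alone held 74.7% of the summed CPM of the 10 genes. The sum was therefore 436 ± 53.8 CPM across mutants and 474 ± 36.1 CPM in wild-type libraries, while the sum of the other 9 was 136 ± 15.7 CPM across mutants and 94.0 ± 9.50 CPM across wild types (SD over 4 libraries each), a ratio of 1.45. The sum of the 9 ran from 116 to 150 CPM in the mutant and from 81.6 to 102 CPM in the wild-type libraries. Btg2 was left out of it with its value known. Ier2, Jun and Nr4a1 were the largest parts of this sum, at 49.3, 38.4 and 29.7 CPM across mutants. Across wild types these genes were at 37.7, 25.8 and 20.0 CPM.

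**Figure D4:**
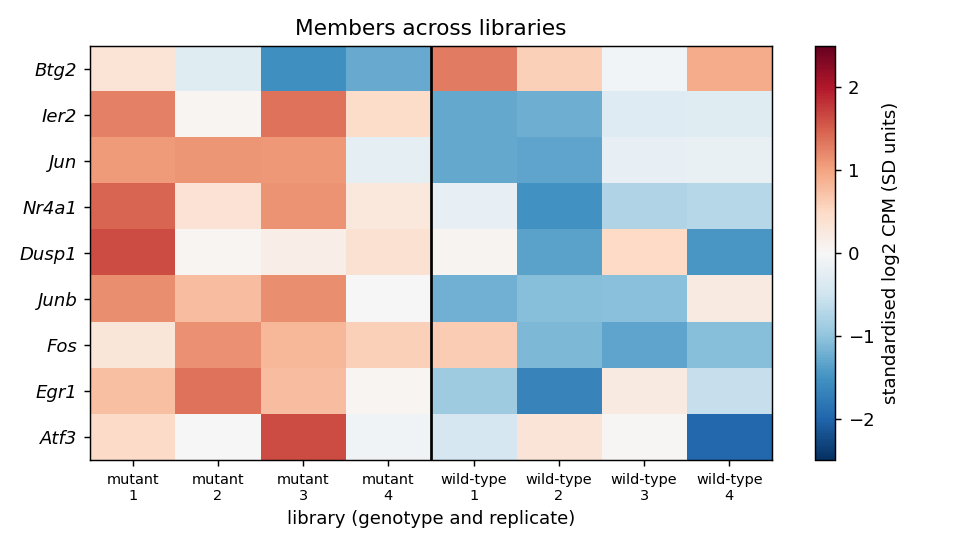
Log2 CPM of the 9 tested immediate early genes in each library, standardised per gene over the 8 libraries (colour, SD units), mutant libraries left of the line and wild-type libraries right of it. The colours include the difference between genotypes, which is opposite in sign for Btg2, and mutant replicate 4 is the lowest mutant library for 5 of the 10 genes.

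Across the 8 libraries most pairs of the 9 tested genes had positive correlations. Over all 36 pairs Pearson's r of log2 CPM was positive in 28, with a median of 0.50, and with the genotype means removed it was positive in 24, with a median of 0.22. Btg2 was negative with each of the other 8 genes before that removal. Over the 28 pairs among the 8 tested genes without Btg2, left out because of its sign, r was positive in 28, with a median of 0.60, and it was 0.93 for Jun and Egr1 and 0.92 for Jun and Junb. These values include the difference between genotypes. With the genotype means removed, 19 of 28 pairs were positive and the median was 0.25. Jun kept r of 0.82 with Egr1, 0.77 with Junb and 0.62 with Ier2, while Fos had r of -0.30 with Jun, -0.26 with Junb and -0.54 with Ier2. The points are the same 8 libraries for every pair and share their depth and pooled embryos, so these values are a description. Wild-type replicate 1, the highest of its genotype for Fos, was the lowest for Junb. It was at 1.06 CPM for Junb, close to wild-type replicates 2 and 3 at 1.15 and 1.17 CPM. Mutant replicates 2 and 3 were the highest mutant libraries for both Fos and Jun. For Jun the ranks were near ties, at 41.2 to 41.6 CPM in mutant replicates 1 to 3.

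The spread between pools was wider for the low genes. The coefficient of variation within genotypes was 40.5% for Atf3, 38.5% for Fos and 35.9% for Junb, and 26.9% and 27.9% for Egr1 and Dusp1, beside a median of 15.2% over all genes tested. It was 16.5% for Jun, 14.2% for Nr4a1, 12.4% for Btg2 and 10.3% for Ier2. Set against the 500 genes nearest in mean CPM, the 9 genes lay between the 55.6th percentile (Ier2) and the 80.6th (Jun and Junb), so each was more variable than the middle of its neighbours.

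The 8 genes whose pattern over the libraries was most like that of the 9 tested immediate early genes were Nudc, Trp53i13, Klf11, Snapc2, Pigx, Rfx1, Dnlz and Ddost, among protein-coding genes with a mean of at least 5 CPM. The measure was Pearson's r over the 8 libraries with the mean of the standardised log2 CPM, and it ran from 0.961 for Ddost to 0.986 for Nudc. Klf11, a Krüppel-like transcription factor gene, was at 8.31 ± 1.495 CPM across mutants and 5.16 ± 0.435 CPM in wild-type libraries, and Nudc, a gene of nuclear migration, at 73.3 ± 7.41 and 57.2 ± 3.04 CPM across mutants and wild types (SD over 4 libraries each). Neither passed over all genes (edgeR adjusted p = 0.0936 and 0.0897). The values of r include the difference between genotypes. With the genotype means removed, r of these 8 genes ran from 0.83 for Dnlz to 0.95 for Pigx. The 8 were picked for the highest r among all such genes, so high values were selected. Of the 9 genes themselves, each of which is part of the pattern, Nr4a1 had r of 0.97 with it and Btg2 r of -0.53. With the genotype means removed r was 0.88 for Nr4a1 and 0.35 for Btg2, against 0.11 for Fos and 0.12 for Atf3.

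Further genes were taken from lists written with earlier results known. List genes below the filter on low counts were not tested and stay out of the counts below. They were Fosl1, Egr3, Egr4 and Npas4 of 27 transcription factors, and Ptgs2, Rgs1 and Gdf15 of 31 early genes of other functions. Dusp2 of 14 MAP kinase inhibitors and Hspa1a and Hspa1b of 15 heat shock genes were also below it. So were Cxcl1, Cxcl2, Il6, Lif, Tnf and Il1b of 17 NF-kB and inflammatory genes, and Nptx2 and Vgf of 8 neuronal genes. Each list is set beside all genes tested, of which 5.46% were higher and 7.92% lower at an unadjusted p under 0.05, 0.904% were called higher and 2.43% lower by DESeq2, and 49.5% had a positive log2 change. No difference between a list and all genes was tested. Of 23 tested transcription factors of this kind none passed over all genes with edgeR or with DESeq2, and 2 were higher at an unadjusted p under 0.05. Their median log2 change was 0.10 and 18 were positive. Jund, the third Jun gene, was at 5.96 ± 0.577 CPM across mutants and 4.42 ± 0.436 CPM across wild types (SD over 4 libraries each), without overlap (log2 change 0.43 ± 0.16, SE, edgeR adjusted p = 0.291). Mafg was at 191 ± 35.7 and 184 ± 6.60 CPM, and Atf4 at 90.6 ± 5.81 and 95.01 ± 5.95 CPM, across mutants and wild types (SD over 4 libraries each).

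Of 28 tested immediate early genes of other functions none passed with edgeR (7 higher at an unadjusted p under 0.05, beside 5.46% of all genes) and 1, Trib1, was called higher by DESeq2, beside 0.904% of all genes, with a median log2 change of 0.15 and 20 positive, beside 49.5% of all genes. Btg1, the closest relative of Btg2, was at 451 ± 105 CPM across mutants and 367 ± 14.8 CPM across wild types (SD over 4 libraries each), a log2 change of 0.30 that is opposite in sign to that of Btg2 (edgeR adjusted p = 0.371). Zfp36l2, which binds and destabilises mRNAs, was at 32.4 ± 15.0 CPM across mutants and 20.8 ± 1.46 CPM across wild types, and the kinase gene Plk2 at 197 ± 25.5 and 170 ± 10.6 CPM (SD over 4 libraries each, edgeR adjusted p = 0.308 and 0.373).

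**Figure D5:**
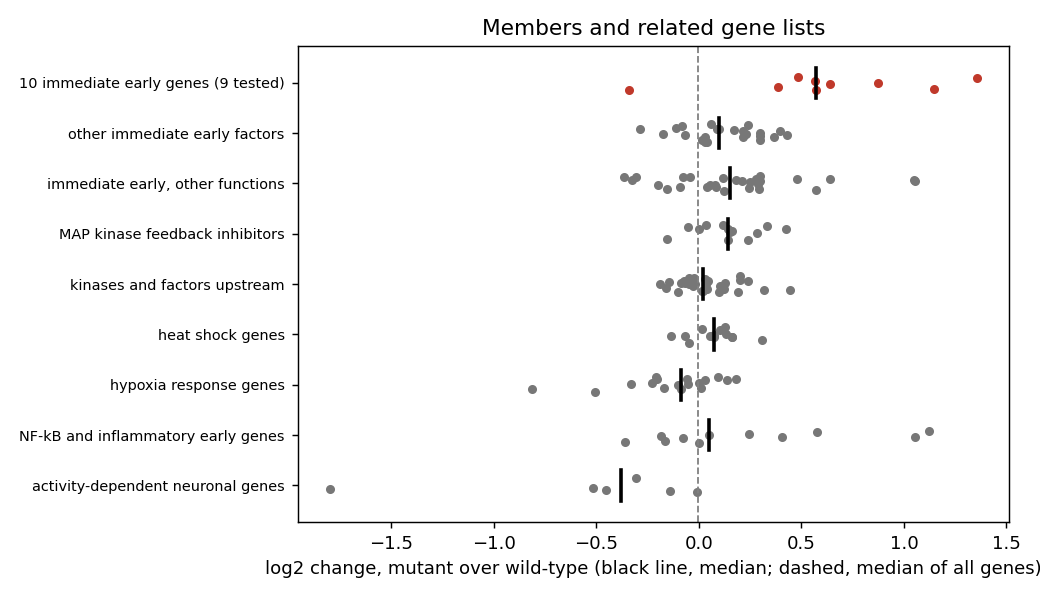
Log2 change, mutant over wild-type, of the 9 tested immediate early genes (top, red) and of the genes of 8 related lists (grey), 1 point per gene, with the median of each list as a black line and the median of all genes as a dashed line. The medians are 0.57 for the immediate early genes, between -0.09 and 0.15 for 7 lists, and -0.38 for the activity-dependent neuronal genes.

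Regulators upstream and downstream of these genes were read next. None of 29 kinases and factors that switch immediate early genes on passed with edgeR (1 higher and 1 lower at an unadjusted p under 0.05, median log2 change 0.02, 16 positive), and DESeq2 called Rps6ka4 higher. The SRF cofactor gene Mrtfb was at 287 ± 33.0 CPM across mutants and 263 ± 15.8 CPM in wild-type libraries. The MAP kinase kinase gene Map2k1 was at 192 ± 30.9 and 162 ± 14.8 CPM, and Rps6ka4, whose kinase acts on CREB and on histones at these promoters, at 17.8 ± 1.99 and 13.1 ± 1.02 CPM, across mutants and wild types (SD over 4 libraries each, edgeR adjusted p = 0.394 and 0.124). None of 13 MAP kinase phosphatases and feedback inhibitors passed with edgeR or DESeq2 (1 higher at an unadjusted p under 0.05, median 0.14, 11 positive). Spry2 was at 1167 ± 149 and 1042 ± 89.8 CPM, Dusp6 at 192 ± 23.2 and 191 ± 25.0 CPM, and Dusp5 at 2.56 ± 0.712 and 1.90 ± 1.14 CPM, across mutants and wild types (SD over 4 libraries each).

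Genes that respond to handling stress in many tissues were also read. None of the 13 heat shock genes tested, which leave out Hspa1a and Hspa1b, passed with edgeR or DESeq2 (0 at an unadjusted p under 0.05, median log2 change 0.07). The summed level of those tested ran from 7537 to 7908 CPM in the mutant and from 7004 to 8498 CPM in the wild-type libraries. Hsp90ab1 and Hspa8 were the largest parts of this sum. The chaperone genes Hsp90ab1 and Hspa8 were at 2600 ± 225 and 1923 ± 107 CPM in mutant libraries, against 2683 ± 332 and 1900 ± 139 CPM across wild types, and the co-chaperone gene Bag3 was at 19.6 ± 2.03 CPM across mutants and 17.4 ± 1.42 CPM across wild types (SD over 4 libraries each). Of 17 hypoxia response genes none passed with edgeR (2 lower at an unadjusted p under 0.05, beside 7.92% of all genes, median -0.09, 5 positive, beside 49.5% of all genes), and DESeq2 called Ndrg1 lower, beside 2.43% of all genes. The glycolytic genes Ldha and Pgk1 were at 1311 ± 211 and 181 ± 17.3 CPM in mutant libraries, against 1284 ± 146 and 189 ± 13.6 CPM in wild-type libraries, and Ndrg1 was at 3.79 ± 0.356 CPM across mutants and 6.65 ± 2.09 CPM across wild types (SD over 4 libraries each, edgeR adjusted p = 0.157).

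Of 11 NF-kB and inflammatory early genes none passed with edgeR (4 higher at an unadjusted p under 0.05, beside 5.46% of all genes, median 0.05), and DESeq2 called 2 higher, Relb and Nfkb2, beside 0.904% of all genes. Relb, an NF-kB subunit gene, was at 5.66 ± 1.14 CPM across mutants and 2.60 ± 1.05 CPM across wild types (SD over 4 libraries each), without overlap (log2 change 1.12 ± 0.30, SE, edgeR adjusted p = 0.134). Nfkbia, an inhibitor of NF-kB that is itself switched on early, was at 49.8 ± 3.71 and 42.1 ± 3.74 CPM, and the cytokine signalling inhibitor gene Socs3 at 17.8 ± 2.65 and 11.9 ± 3.57 CPM, across mutants and wild types (SD over 4 libraries each, edgeR adjusted p = 0.289 and 0.265). Of 6 activity-dependent neuronal genes none passed with edgeR or DESeq2 (1 lower at an unadjusted p under 0.05, median -0.38, 6 negative). Bdnf, a neurotrophin gene, was at 41.4 ± 5.86 CPM across mutants and 45.7 ± 2.88 CPM in wild-type libraries, Scg2 at 18.3 ± 2.70 and 18.4 ± 5.34 CPM, and Nrn1 at 1.70 ± 0.532 and 2.33 ± 1.79 CPM (SD over 4 libraries each).

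Marker levels of other cell types were set beside these values. The summed level of 10 endothelial markers was 287 to 340 CPM across mutants and 263 to 313 CPM in wild-type libraries, that of 10 macrophage and leukocyte markers 143 to 247 and 170 to 217 CPM, and that of 8 pericyte and smooth muscle markers 220 to 262 and 202 to 232 CPM. The 2 highest markers were Eng and Esam for endothelial cells, C1qb and Mrc1 for macrophages and leukocytes, and Rgs5 and Pdgfrb for pericytes. The sums overlapped between genotypes and no marker of these classes was at 0 in all libraries. The summed level of 8 ganglion neuron markers was 336 to 394 CPM across mutants and 537 to 755 CPM in wild-type libraries, without overlap, with 3 of the 8, Nefm, Nefl and Snap25, called lower. Nefm, a neurofilament gene, averaged 100.4 CPM across mutants and 254 CPM across wild types, and Isl1, a transcription factor gene, 147 and 146 CPM. The summed level of 10 hair cell markers was 607 to 759 CPM across mutants and 725 to 837 CPM across wild types. The genotypes overlapped on this sum, and 2 of the 10 were called lower, Otof and Ptprq (edgeR adjusted p = 0.000319 and 0.0187). Atoh1 alone of the 10 had a positive log2 change, 0.65 (edgeR adjusted p = 0.238), at 60.4 CPM across mutants and 38.3 CPM across wild types. Of all genes tested 1.02% were called lower and 0.147% higher by edgeR. Of 7 skeletal muscle markers, at 74.6 to 89.8 CPM across mutants and 47.1 to 88.1 CPM across wild types, 1 was called higher, Myog, a myogenic factor gene, at 23.1 CPM across mutants and 7.57 CPM across wild types (edgeR adjusted p = 0.00311), while Acta1 was at 31.4 and 31.0 CPM. The summed level of 7 glial markers was 624 to 767 CPM across mutants and 565 to 642 CPM across wild types, led by Fabp7 at 427 and 371 CPM and Erbb3 at 177 and 150.0 CPM, with none called by edgeR. That of 7 erythroid markers, led by Hbb-bs and Hbb-bt, was 514 to 793 CPM across mutants and 501 to 6449.5 CPM across wild types. The part of any of these cell types in the values of the immediate early genes was not tested.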

How the data were processed

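Total RNA of pooled utricles was reverse transcribed with an oligo-dT primer and a template-switching oligo, amplified, tagmented and sequenced as paired reads, per the labels' protocols. Per the submitters' processing notes, the authors used STAR 2.5.2a, DESeq2 and GRCm38.p4. The authors deposited whole-number counts of read pairs per gene for each of 8 libraries, not normalized, of which the unstranded column was used (both strand columns held like sums, with ratios from 0.996 to 1.00). A further 114 lines for spike-ins and transgenes, with 38 to 76 read pairs per library, and the reads on no gene, 25.2% to 33.9% of all, stayed out of library sizes and tests. A second file deposited by the authors holds a normalized signal, counts over a size factor, for 21369 genes in 7 libraries (not wild-type replicate 4). Whole reads were recovered for 100% of its values (tolerance 0.001 reads) and equalled the deposited counts, and the count test on them, an alternative added after seeing the data, called 127 genes.

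Members were matched by symbol in the authors' table and joined by Ensembl identifier. The members and all lists were chosen with earlier results of these data known. Genes were kept by filterByExpr (minimum count 10, minimum total 15) and genotypes were compared by the quasi-likelihood test (edgeR 4.0.16, R 4.3.3) on TMM-scaled counts of all 8 libraries, with Benjamini-Hochberg adjustment over all 16989 genes and a threshold of 0.05. The test was checked on simulated data. The standard error is the size of the log2 change divided by the root of F. CPM were computed with TMM-scaled library sizes. Exon length is the union of exons in GENCODE release M21 (GRCm38), which also gave symbols. Named list genes are those past the threshold, or else the 2 with the highest mean CPM and the 1 with the largest change at a mean of at least 2 CPM. Genes named outside this rule, chosen after their values were seen, are Prdx2, Junos and Ergic1, which overlap members, and Trib1 and Nfkb2, which DESeq2 called. Others are the per-library value of Hbb-bs, the called markers Ptprq, Nefl and Snap25, and the marker Atoh1. List genes that fell below the filter are named as well. Alternatives were DESeq2 1.42.0, other scaling, no filter, robust dispersion, the replicate number as a block, and each library left out.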

Additional observations from a re-analysis of the deposited data

Results flagged for a closer look

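In groups of 4 libraries a value was picked out when its gap to the nearest other library exceeded 0.829 of the range of the group, which chance does in about 1 in 20 groups. Of 20 groups, 10 genes in 2 genotypes, 3 were picked out. Fos was at 2.76 CPM in wild-type replicate 1, against 0.768 to 0.921 CPM in replicates 2 to 4 of that genotype. Jun was at 29.1 CPM in mutant replicate 4, against 41.2 to 41.6 CPM in the other mutant libraries. Junb was at 2.62 CPM in wild-type replicate 4, against 1.06 to 1.17 CPM in replicates 1 to 3 of that genotype. Each lay towards the other genotype, in 3 different libraries.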

How the results depend on the processing

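The direction of the 9 tested genes held in 135 of 135 values under 15 alternatives each, and 8 of these values passed the threshold. DESeq2 called 4 of the genes higher, and 411 lower and 153 higher genes in all. Without the filter on low counts 1 was called higher (Nr4a1). In the authors' 7 libraries 1 was called higher (Junb, edgeR adjusted p = 0.0284), with 107 lower genes in all. These are the libraries and reads of the fit without wild-type replicate 4, on another set of genes. The alternatives reuse the same libraries and are not independent of each other. The fits that leave out 1 library called 0 to 1 of the genes higher, 105 to 140 lower and 12 to 28 higher genes in all, with a median log2 change of the members from 0.51 to 0.69 and a ratio of their summed level, mutant over wild-type, from 0.872 to 0.960. With the replicate block 80 lower and 16 higher genes were called in all and none of the members. Same-numbered libraries did not deviate together (r from -0.26 to 0.14, and 1 of 4 mutant libraries correlated best with its own number). So few pairs cannot show whether same-numbered libraries shared a litter or a day. The cause of these shifts was not tested. Depth limits Fosb, with 1 to 9 read pairs per library.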
